A study of Mus musculus with 8 samples.

Results

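Peptide loading and immunoproteasome genes were followed in bone marrow stem and progenitor cells after injection of IFNα. Tap1, Tap2, Tapbp, Tapbpl, Erap1, Psmb8, Psmb9, Psmb10, Psme1 and Psme2 were chosen by symbol, and these 10 genes were all found among the 27998 genes of the count matrices. All 10 passed the filter on low counts in every comparison below.

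MHC class I molecules show short peptides from inside the cell at its surface. The proteasome cuts proteins into such peptides, and in the immunoproteasome the catalytic subunits encoded by Psmb8 (β5i), Psmb9 (β1i) and Psmb10 (β2i) take the places of those encoded by Psmb5, Psmb6 and Psmb7. Psme1 and Psme2 encode the α and β subunits of PA28, a cap that opens the proteasome core. Tap1 and Tap2 form the pump that carries peptides into the endoplasmic reticulum, Erap1 trims them there, tapasin (Tapbp) bridges the pump and empty class I molecules and favors the binding of stable peptides, and Tapbpl encodes TAPBPR, a related peptide editor. Many genes of this pathway are known interferon-stimulated genes.

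The data are single-cell RNA counts of wild-type mice aged 12 to 14 weeks. Lin- cKit+ (LK) bone marrow cells had been sorted together with added LK CD150+ CD48- CD34- cells, a gate rich in hematopoietic stem cells (HSCs). Control mice had received 100 µl of PBS, and treated mice had received recombinant mouse IFNα under the skin, at 50000 IU for each 20 g of body weight, 3, 24 or 72 h earlier. The 4 mice of a time point were told apart by hashtag antibodies within 1 library, so that the time point and its library cannot be told apart.

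Cells with a single hashtag, at least 700 genes and at most 5% mitochondrial counts were kept, which left 10046 of 13310 barcodes, namely 2474, 1661, 3462 and 2449 cells for control, 3, 24 and 72 h. Hashtag multiplets and negatives were removed by this rule, and doublets within a mouse remain. Any pair of libraries shared 9 to 69 barcodes, at most 1 of them in kept cells of both. Median counts per kept cell (unique molecular identifiers, UMIs) ranged from 12017 at 3 h to 18964.5 in control. Mice held 58 to 1240 cells and 1102706 to 26446327 UMIs. Control mouse 4 was the shallowest, and the next had 330 cells. The smallest number of UMIs behind a mouse's value for a member was 19, for Tapbpl in control mouse 4, and over mouse and class it was 1, for Erap1 in HSC-like cells of the same mouse.

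Tap1, Psmb8 and Psmb9 lie side by side with Tap2 in the MHC region of chromosome 17. In mm10, Tap1 spans chr17:34187553-34197225 on the plus strand and Psmb9 chr17:34181987-34187764 on the minus strand, so that their 5′ ends overlap. Psmb8 begins 496 bases beyond the end of Tap1, at chr17:34197721-34201454, and Tap2 follows at chr17:34203527-34216321. Tapbp lies apart on the same chromosome, at chr17:33915899-33929292. Psme1 (chr14:55578123-55581529) and Psme2 (chr14:55587441-55591113) are neighbors on opposite strands. Erap1 lies at chr13:74639568-74693201, Psmb10 at chr8:105935735-105938444 and Tapbpl at chr6:125223933-125231860. Of the 10 genes, 9 overlap another annotated gene, with Psme2 as the exception. Whether counting used strand is not given in the sources used here, so reads of overlapping genes may be shared. Psme2b, a near copy of Psme2, held 465 UMIs over all mice beside 57058 for Psme2.

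Promoter windows of 300 bases, from 250 before the start site, were available for 8 of the 10 members in RefSeq sequence of GRCm38.p6. Tap2 and Tapbpl had none. Both strands were searched for GAAA followed by any 2 bases and GAAA again, the core of the interferon-stimulated response element (ISRE), and for TTCNNNGAA, the gamma-activated sequence (GAS). These letters were found in 3.44% and 8.3% of 32851 promoter windows. Erap1 and Psme1 held an ISRE match and Psmb8 a GAS match, shown in capitals below. Neither motif was found in the windows of Tap1, Tapbp, Psmb9, Psmb10 and Psme2. The window of Tap1 is shown because the start sites of Tap1 and Psmb9 lie 226 bases apart, so that their windows share 275 bases. A match is a description of the letters and not evidence of binding.
Erap1: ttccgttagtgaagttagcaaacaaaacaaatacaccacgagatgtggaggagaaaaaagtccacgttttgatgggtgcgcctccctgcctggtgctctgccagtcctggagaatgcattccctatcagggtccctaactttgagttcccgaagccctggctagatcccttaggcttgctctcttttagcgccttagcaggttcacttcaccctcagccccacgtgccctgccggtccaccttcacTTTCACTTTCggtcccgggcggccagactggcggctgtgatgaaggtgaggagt
Psme1: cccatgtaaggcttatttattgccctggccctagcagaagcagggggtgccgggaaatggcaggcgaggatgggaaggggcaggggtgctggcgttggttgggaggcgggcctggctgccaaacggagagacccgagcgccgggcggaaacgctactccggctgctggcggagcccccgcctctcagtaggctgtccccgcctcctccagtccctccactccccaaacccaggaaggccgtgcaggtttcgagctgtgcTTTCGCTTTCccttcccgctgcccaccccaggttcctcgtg
Psmb8: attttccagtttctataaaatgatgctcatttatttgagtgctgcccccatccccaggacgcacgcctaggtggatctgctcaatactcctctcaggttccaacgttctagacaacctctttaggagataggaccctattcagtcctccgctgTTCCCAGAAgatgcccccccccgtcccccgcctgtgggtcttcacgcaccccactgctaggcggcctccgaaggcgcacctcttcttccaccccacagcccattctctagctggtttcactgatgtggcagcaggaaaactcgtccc
Tap1: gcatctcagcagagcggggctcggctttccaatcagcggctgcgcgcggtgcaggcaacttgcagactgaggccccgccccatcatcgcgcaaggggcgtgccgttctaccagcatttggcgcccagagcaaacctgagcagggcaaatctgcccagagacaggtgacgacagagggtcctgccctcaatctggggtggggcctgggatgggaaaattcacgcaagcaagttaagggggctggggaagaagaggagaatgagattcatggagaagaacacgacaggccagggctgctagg
The Erap1 window is chr13:74639603-74639902, with its match 4 bases before the start site (offset -4) and on the opposite strand. The Psme1 window is chr14:55578244-55578543, with its match at offset 9, also on the opposite strand. The Psmb8 window is chr17:34197945-34198244, with its match at offset -97. The Tap1 window is chr17:34187306-34187605. All 4 are plus strand windows, and offsets count from the annotated start site.

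In the whole compartment, 9 of the 10 members were higher 3 h after IFNα than in control, all except Tap2. Tapbp (2.47-fold) and Tap1 (2.37-fold) changed most, followed by Psmb10 (1.98-fold), Psme1 and Tapbpl (1.86-fold each). The same 9 genes were called at 24 h with smaller changes. By 72 h Tap1 and Erap1 were called higher and Psme2 lower, and with the class shares fixed as in control (limma) Psme2 alone was still called. Values are CPM, a gene's UMIs relative to all UMIs of a mouse on a common scale with TMM factors, and calls are those of edgeR's quasi-likelihood test over the 16 mice with a Benjamini-Hochberg adjusted p under 0.05 over all 12042 genes tested. Of all genes tested, 19.7% were called higher at 3 h, 14.5% at 24 h and 18.9% at 72 h, and 18.5% were called lower at 72 h. A log2 fold change over 1 at 3 h was reached by 5.22% of all genes and by 2 members, Tap1 and Tapbp. The median log2 fold change of the members was 0.76 at 3 h, 0.26 at 24 h and -0.045 at 72 h, against -0.027, 0.004 and 0.019 over all genes. Scaling by library size alone in place of TMM moved the median of all genes at 3 h to -0.175 and the calls from 2368 higher and 2307 lower to 1591 and 4632, and the members' median to 0.61, with 9 called higher. In sums over a mouse's cells, a change in the mix of cells and a change in RNA per cell cannot be told apart. The run with fixed class shares used CPM without TMM factors, so that it changed the scaling together with the mix. In that run control mouse 4 lacked the LMPP-like, erythroid-like and MK-like classes (described below), with under 10 cells in each.

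**Figure D1:**
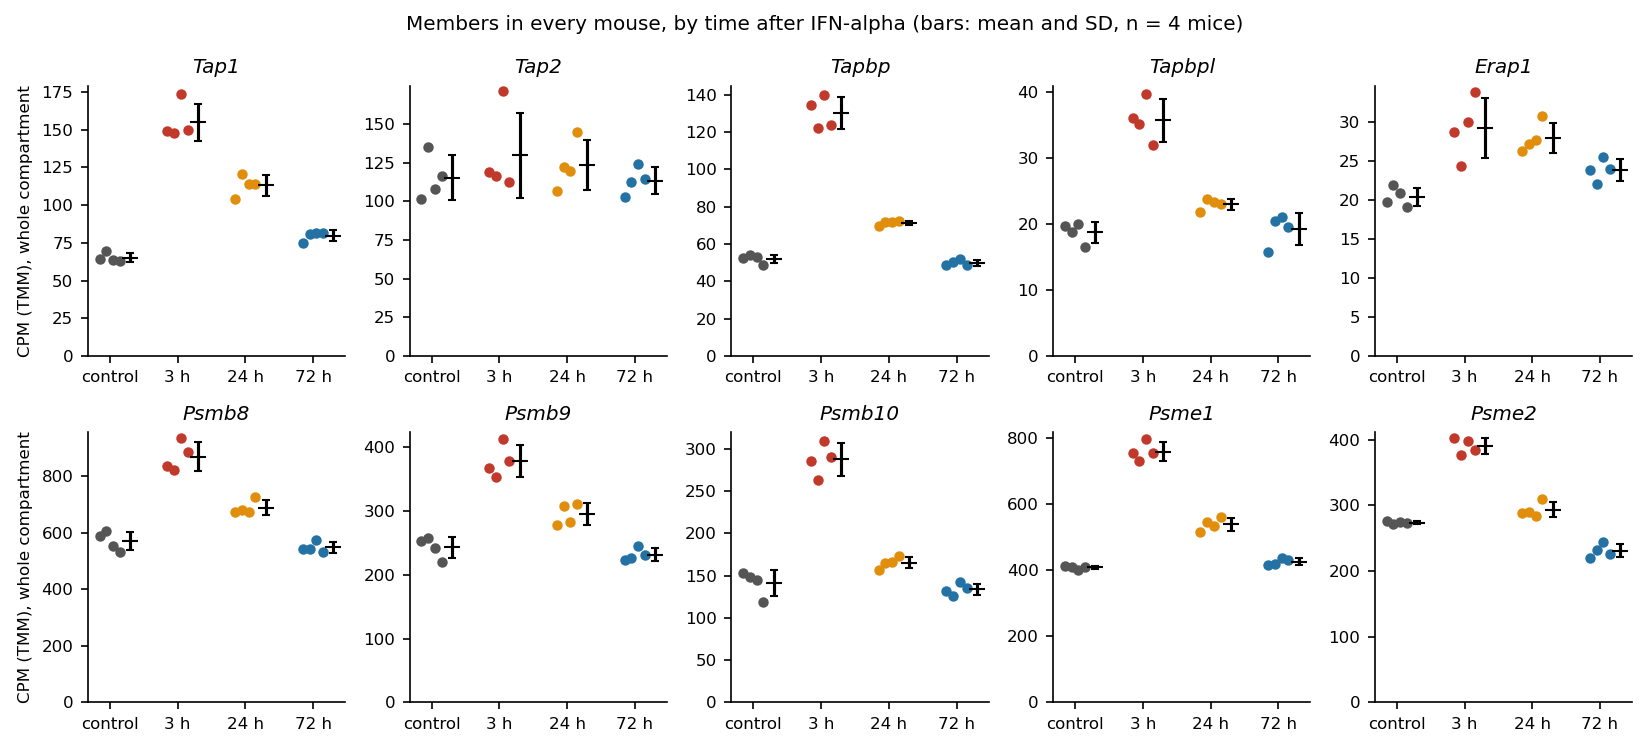
Each panel plots 1 member in CPM over all kept cells of a mouse, with 1 point per mouse, by time after IFNα, and the black bars give the mean and SD of 4 mice. In every panel except that of Tap2, the 4 points at 3 h lie above the 4 control points.

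Tap1, which forms the peptide pump with Tap2, measured 64.5, 69.3, 63.6 and 62.6 CPM in the 4 control mice and 149, 148, 173 and 149.6 CPM in the 4 mice at 3 h. All 4 treated mice lay far above the controls. The log2 fold change was 1.25 (SE 0.060, adjusted p = 5.24e-14). At 24 h the mice measured 104, 121, 114 and 114 CPM, and at 72 h 74.7, 81.1, 81.6 and 81.6 CPM. Every mouse at both later times still lay above every control mouse. The log2 fold changes were 0.79 (SE 0.057, adjusted p = 5.43e-10) and 0.28 (SE 0.059, adjusted p = 0.000747). With the class shares fixed as in control, the change at 72 h was 0.23 and did not pass (limma adjusted p = 0.062).

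Tap2, the other chain of the pump, measured 101.5, 135, 108 and 117 CPM in control mice and 119, 116, 171 and 113 CPM at 3 h. Mouse 3 of the 3 h group was high, and the other 3 lay within the control range. The log2 fold change of 0.195 (SE 0.12, adjusted p = 0.206) did not pass the test, and it was 0.33 (adjusted p = 0.0173) when each cell was thinned to 5000 UMIs. Without that mouse the value was 0.006. It was 0.046 with library size scaling alone and -0.11 with fixed class shares, a run that also used no TMM factors. In the main fit the log2 fold change at 24 and 72 h was 0.11 (adjusted p = 0.504) and -0.019 (adjusted p = 0.917), with 107 to 145 and 103 to 124 CPM. Across the 16 mice, log2 CPM of Tap2 had a Pearson r of 0.416 to 0.525 with each of the other members.

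Tapbp, the chaperone tapasin, measured 52.3, 53.9, 52.8 and 48.7 CPM in control mice and 134, 122, 140 and 123.5 CPM at 3 h. The groups were far apart, with a log2 fold change of 1.31 (SE 0.049, adjusted p = 5.41e-16). At 24 h the values were 69.8, 71.6, 71.7 and 72.4 CPM, all above control, and at 72 h 48.8, 50.4, 52.0 and 48.5 CPM, within or just below the control range. The changes were 0.44 (adjusted p = 3.47e-07) and -0.079 (adjusted p = 0.221). Tapbpl, the related peptide editor, ranged from 16.5 to 19.95 CPM in control and from 31.9 to 39.7 CPM at 3 h. Its log2 fold change was 0.89 (SE 0.0865, adjusted p = 1.95e-08) at 3 h and 0.25 (adjusted p = 0.0208) at 24 h. The 24 h call was lost when control mouse 2 or 24 h mouse 2 was left out, with an adjusted p of up to 0.0667, and in thinned cells the change was 0.38 (adjusted p = 0.0372).

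Erap1, the trimming aminopeptidase, ranged from 19.1 to 21.9 CPM in control, 24.4 to 33.9 CPM at 3 h, 26.3 to 30.8 CPM at 24 h and 22 to 25.6 CPM at 72 h. No treated mouse reached down into the control range. The log2 fold changes were 0.50 (SE 0.086, adjusted p = 6.16e-05), 0.44 (SE 0.074, adjusted p = 0.000144) and 0.21 (SE 0.0795, adjusted p = 0.0463). The call at 72 h was lost in 10 of the 16 leave-one-out runs, with an adjusted p of up to 0.144. It was also lost with DESeq2, library size scaling, no filter, the hashtag block, thinned cells and fixed class shares (adjusted p of 0.0512 to 0.454).

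Psmb8, the β5i subunit, measured 589.6, 604.5, 552 and 533 CPM in control mice and 837, 823, 934 and 884 CPM at 3 h. All mice at 3 h were higher than all controls, with a log2 fold change of 0.60 (SE 0.043, adjusted p = 9.46e-11). At 24 h the mice measured 673, 679, 675 and 727 CPM, still above control, and at 72 h 542, 541, 574 and 533 CPM, within the control range. The changes were 0.26 (SE 0.042, adjusted p = 7.59e-05) and -0.066 (SE 0.043, adjusted p = 0.237). With fixed class shares and no TMM factors the change at 3 h was 0.38 (limma adjusted p = 4.98e-07), beside 0.45 with library size scaling alone.

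Psmb9, the β1i subunit, measured 243 ± 16.6 CPM (SD, n = 4) in control and 378 ± 25.5 CPM at 3 h, with ranges of 220.1 to 257 and 354 to 413 CPM that did not overlap. Its log2 fold change was 0.62 (SE 0.052, adjusted p = 1.73e-09) at 3 h, 0.26 (adjusted p = 0.00058) at 24 h and -0.092 (adjusted p = 0.171) at 72 h. With fixed class shares and no TMM factors it was 0.39 at 3 h (limma adjusted p = 4.5e-06), beside 0.47 with library size scaling alone. Psmb10, the β2i subunit, measured 154, 149, 145 and 118 CPM in control mice and 285.5, 264, 309.8 and 291 CPM at 3 h. Control mouse 4 was lowest, and every mouse at 3 h was far above all controls. The log2 fold change was 0.98 (SE 0.056, adjusted p = 1.6e-12). At 24 h the values of 157, 165, 166 and 173 CPM had come close to the highest control mouse. The change at 24 h was 0.18 (SE 0.055, adjusted p = 0.0162), lost without 24 h mouse 4 (adjusted p = 0.0505) and with fixed class shares (0.0524).

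Psme1, the α subunit of PA28, measured 413, 409, 401 and 411 CPM in control mice and 753, 730.1, 797 and 754 CPM at 3 h. These groups were tight and well apart, with a log2 fold change of 0.895 (SE 0.033, adjusted p = 4.13e-16). The values at 24 h were 516.5, 545, 532 and 559.8 CPM, all above control, with a change of 0.40 (SE 0.0325, adjusted p = 4.34e-09). At 72 h the change of 0.061 (SE 0.033, adjusted p = 0.154) did not pass the test. Psme2, the β subunit, measured 277, 271, 274 and 272 CPM in control mice and 402, 376, 398 and 384 CPM at 3 h, a log2 fold change of 0.51 (SE 0.038, adjusted p = 1.72e-10). At 72 h it measured 220.4, 232, 244 and 226 CPM, below every control mouse, and the change was -0.25 (SE 0.037, adjusted p = 2.33e-05), or -0.13 with fixed class shares (limma adjusted p = 0.0104). At 24 h the change was 0.10 (SE 0.037, adjusted p = 0.0482), and this call was lost in 13 of the 16 leave-one-out runs, with an adjusted p of up to 0.166. It was also lost by the likelihood ratio test and with library size, no filter, the hashtag block and thinned cells (0.0519 to 0.178), and with fixed class shares the change was 0.17 (limma adjusted p = 0.00224).

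The members came down at different times. From 3 to 24 h, 8 of the 10 fell, all except Erap1 and Tap2, where 16.3% of all genes were called lower. From 24 to 72 h, 9 fell, all except Tap2, against 5.38% of all genes. Erap1 (edgeR adjusted p = 0.0496) and Tapbpl (0.0324) were near the limit in this later step, and its count was 7 to 9 with a mouse left out. The largest falls from 3 to 24 h were those of Tapbp, -0.87 (SE 0.045, adjusted p = 4.86e-13), and Psmb10, -0.80 (SE 0.054, adjusted p = 4.41e-11), on the log2 scale. The log2 change of Erap1 at 24 h was 87.1% of that at 3 h, and that of Tap1 63.4%. For Psme1, Psmb8 and Psmb9 it was 44.7%, 43.9% and 42%. For Tapbp it was 33.5%, for Tapbpl 28%, for Psme2 19.4% and for Psmb10 18.4%. These shares are descriptions, without a test between genes.

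**Figure D2:**
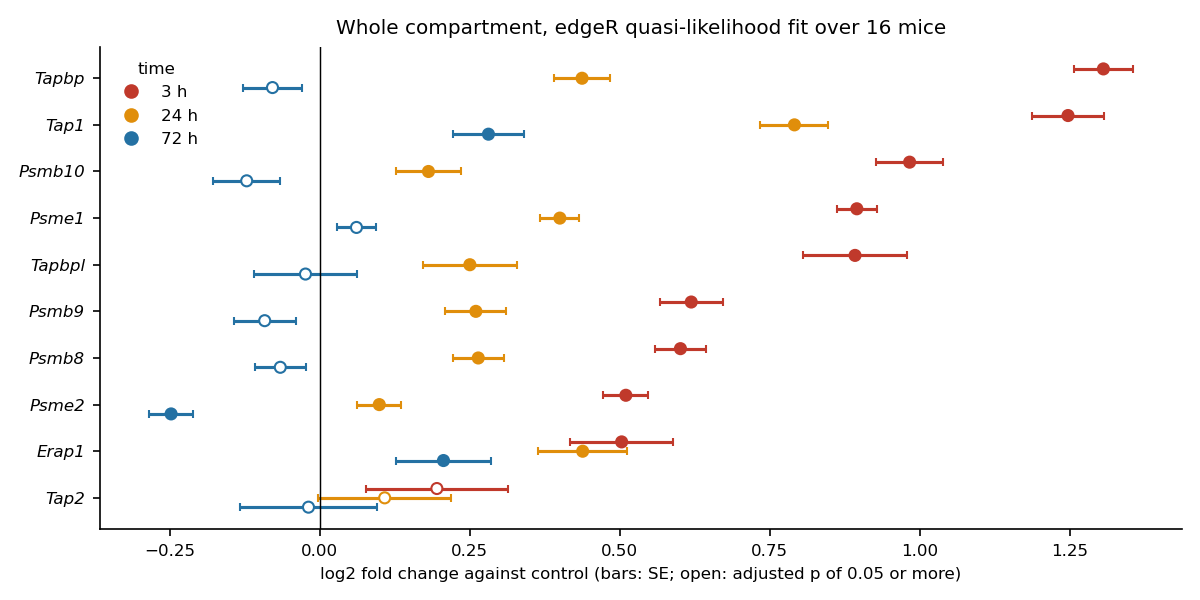
Log2 fold changes against control of each member in the whole compartment at 3, 24 and 72 h, with SE bars from edgeR over 16 mice, ordered by the change at 3 h. Filled points have an adjusted p under 0.05, and Tap2 is the member with open points at every time.

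Markers of other cell types moved between the libraries. The summed level of the 13 myeloid progenitor markers ranged from 13850 to 18920 CPM in control mice and from 7352 to 10850 CPM at 3 h, and that of the 9 HSC markers from 174.4 to 257.5 and from 386.6 to 500.2 CPM. Both lists were detected in full in every group. The HSC list holds Ly6a, which encodes Sca-1 and whose expression the study reports to rise early after IFNα. The sum of that list is therefore not a measure of HSC number alone. The summed level of 8 monocyte markers was 555.9 to 720.1 CPM in control and 367.3 to 432.8 CPM at 3 h. B cell markers (6 genes) summed to 38.09 to 49.43 CPM in control and 28.33 to 31.1 CPM at 3 h, with Pax5 and Ms4a1 at 0 at 3 h. T and NK cell markers (5 genes) summed to 341 to 620.7 and 290.6 to 387.9 CPM, with Cd3e and Cd3g at 0 at 3 h. Markers of dendritic cells and of macrophages (6 genes each) summed to at most 13.8 CPM in a mouse, and Siglech and Cd209a were at 0 at 3 h. LMPP (7 genes), erythroid (11), MK (9) and basophil, mast cell and eosinophil (8) markers had medians of 253.3, 1278, 456.2 and 547 CPM in control and 207.7, 843.7, 551.7 and 204.3 CPM at 3 h. With the class shares fixed as in control, limma called 9 members higher at 3 h, with log2 changes of 0.35 to 1.09, and 8 at 24 h. No TMM factors were used in that run. Control mouse 4 entered it with HSC-like and myeloid-like cells alone, since its LMPP-like, erythroid-like and MK-like classes held 6, 4 and 7 cells.

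None of the standard subunits that Psmb8, Psmb9 and Psmb10 replace had a positive log2 change at 3 h. Psmb5 (β5) had a log2 fold change at 3 h of -0.080 (SE 0.043, adjusted p = 0.152), Psmb6 (β1) of -0.15 (SE 0.036, adjusted p = 0.00253) and Psmb7 (β2) of -0.18 (SE 0.050, adjusted p = 0.00745). With library size scaling these were -0.23, -0.30 and -0.325, and Psmb5 was then called lower too (adjusted p = 7.31e-05). At 72 h all 3 were lower than in control, with -0.24 (SE 0.0425, adjusted p = 0.000128), -0.215 (SE 0.035, adjusted p = 6.29e-05) and -0.16 (SE 0.047, adjusted p = 0.00961).

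The share of the immunoproteasome gene in the UMIs of each pair of subunits was computed per mouse. It does not depend on the scaling between mice, and it is a share of 3′ counts and not of protein. For Psmb8 of Psmb8 plus Psmb5, the control mice gave 59.6%, 61.6%, 59.7% and 60.8%, and the mice at 3 h 69.1%, 71.0%, 73.0% and 70.5%. The mean rose from 60.4% ± 0.962 to 70.9% ± 1.64 (SD, n = 4 each), and was 65.9% ± 0.703 at 24 h and 63.2% ± 0.356 at 72 h. In these sums over all kept cells, no treated mouse overlapped with control at any of the 3 times. Within every class (below), mice at 72 h did overlap with control. In HSC-like cells the Psmb8 share was 67.22 to 70.19% at 72 h and 65.06 to 67.85% in control. Psmb5 was called lower at 72 h (above), while the change of Psmb8 did not pass.

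For Psmb10 of Psmb10 plus Psmb7, the control mice gave 54.2%, 54.1%, 53.0% and 48.6%, and the mice at 3 h 72.5%, 71.5%, 72.3% and 71.0%. The control mice lay near an even split, and all mice at 3 h were near 72%. The 24 h mean was 56.6% ± 0.539 and the 72 h mean 53.95% ± 1.33. For Psmb9 of Psmb9 plus Psmb6, the mean went from 46.6% ± 2.94 in control to 60.3% ± 1.25 at 3 h. It was 52.7% ± 1.33 after 24 h, and after 72 h 49.4% ± 0.940. In two-sided exact permutation tests of 4 against 4 mice, whose smallest p is 0.0286, 7 of the 9 comparisons reached that value, with a Benjamini-Hochberg adjusted p of 0.0367 over the 9. The exceptions were Psmb9 at 72 h (exact permutation adjusted p = 0.0643) and Psmb10 at 72 h (0.429). These shares cover all kept cells, so a change in the mix of cells also enters them. The mean Psmb9 share by class (below), in control and at 24 h, was 58.4% and 59.5% in HSC-like cells. In LMPP-like cells it was 56.1% and 56.3%, and in MK-like cells 50.9% and 52.4%. In myeloid-like cells it was 45.7% and 49.6%, and in erythroid-like cells 25.4% and 41.8%.

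**Figure D3:**
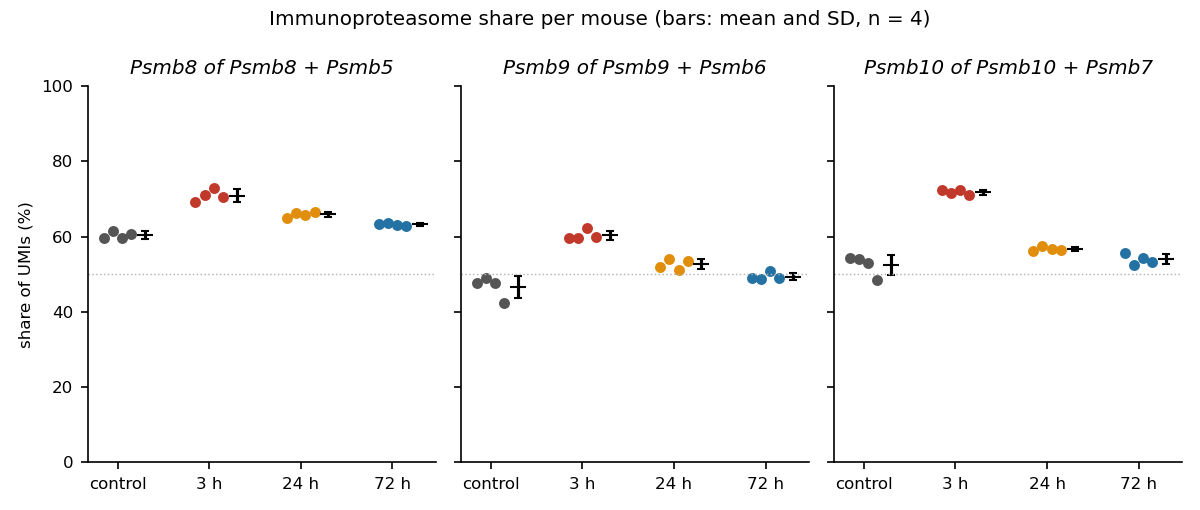
Share, in percent of UMIs, of Psmb8, Psmb9 and Psmb10 in the sum with the standard subunit each replaces, 1 point per mouse and time point. The shares at 3 h lie above all control mice in the 3 panels, and by 72 h those of Psmb9 and Psmb10 overlap with control.

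Cells were next divided into classes by clustering the control cells and carrying the labels to the treated cells, with the members, the other pathway genes and listed interferon-stimulated genes left out of the genes used. The names rest on listed markers, and the clusters may differ from those of the study. HSC-like, LMPP-like (lympho-myeloid primed), myeloid-like, erythroid-like and MK-like (megakaryocyte) classes were compared. Mice with at least 10 cells of a class entered, which left 3 control mice in the LMPP-like, erythroid-like and MK-like classes and 77 sums of mouse and class. Control mouse 4 entered with 11 HSC-like and 15 myeloid-like cells, beside 109 to 148 and 229 to 253 in the other control mice. CPM by class use TMM factors over all 77 sums together. Log2 changes by class come from fits with factors of that class alone, so they can differ from the ratio of the printed CPM. The myeloid-like class held clusters 1, 4 and 8, with 42.5%, 32.8% and 24.7% of its cells in control and 39%, 54.7% and 6.4% at 3 h, and monocyte markers were also among the leading genes of cluster 4. The HSC-like class held clusters 5 and 6, with 54.5% and 45.5% in control and 58.8% and 41.2% at 3 h. Cluster 5 had 1 HSC marker, Hlf, and 1 LMPP marker, Dntt, among its 10 leading genes. The erythroid-like class held clusters 11 and 12, with 59% and 41% in control and 73.2% and 26.8% at 3 h. Control cells of cluster 12 had a median of 52005 UMIs, beside 22041 in cluster 11. In sums of UMIs cluster 12 therefore weighs more than its share of cells.

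Before treatment the members were unevenly spread. All 10 differed between classes in control by edgeR's quasi-likelihood test with mice as blocks, as did 83.1% of all genes. The erythroid-like class was lowest for 8 of the 10. For Psmb8 the order was LMPP-like (747.5 ± 53.45 CPM, SD, n = 3), myeloid-like (709 ± 23.7 CPM, n = 4), HSC-like (490.1 ± 27.5 CPM, n = 4), MK-like (463 ± 15.6 CPM, n = 3) and erythroid-like (214 ± 43.3 CPM, n = 3). The LMPP-like and myeloid-like mice overlapped, as did the HSC-like and MK-like mice, while the erythroid-like mice lay apart. Psmb9 had the same lowest class at 115 ± 16.3 CPM and the same highest at 331 ± 7.86 CPM. Tap2 went from 58.45 ± 10.15 CPM in erythroid-like to 190.4 ± 45.75 CPM in LMPP-like cells.

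Tapbp and Psme2 had another lowest class. Tapbp was lowest in MK-like (40.9 ± 5.64 CPM) and erythroid-like (42.45 ± 2.41 CPM) cells, which overlapped, and highest in myeloid-like cells (59.25 ± 2.33 CPM). Psme2 was lowest in HSC-like cells (173 ± 40.2 CPM) and highest in myeloid-like cells (336 ± 15.4 CPM). The ratio of the highest to the lowest class mean in control was 3.49 for Psmb8, 3.26 for Tap2, 3.06 for Tapbpl and 2.87 for Psmb9, and 1.45 for Tapbp.

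At 3 h these ratios were 1.65 for Psmb8, 1.9 for Tap2, 2.02 for Tapbpl and 1.69 for Psmb9, while that of Tapbp was 1.8. HSC-like cells then had the highest mean of 8 members (all except Tap2 and Psme2), which in control had been highest in LMPP-like or myeloid-like cells. Of these, only Psmb9 had HSC-like mice that did not overlap with those of the next class. For Psmb8 the means were 942 CPM (877 to 1003) in HSC-like and 932 CPM (916 to 961) in LMPP-like cells. At 72 h the ratio of Psmb8 was 3.21. These ratios carry no test.

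**Figure D4:**
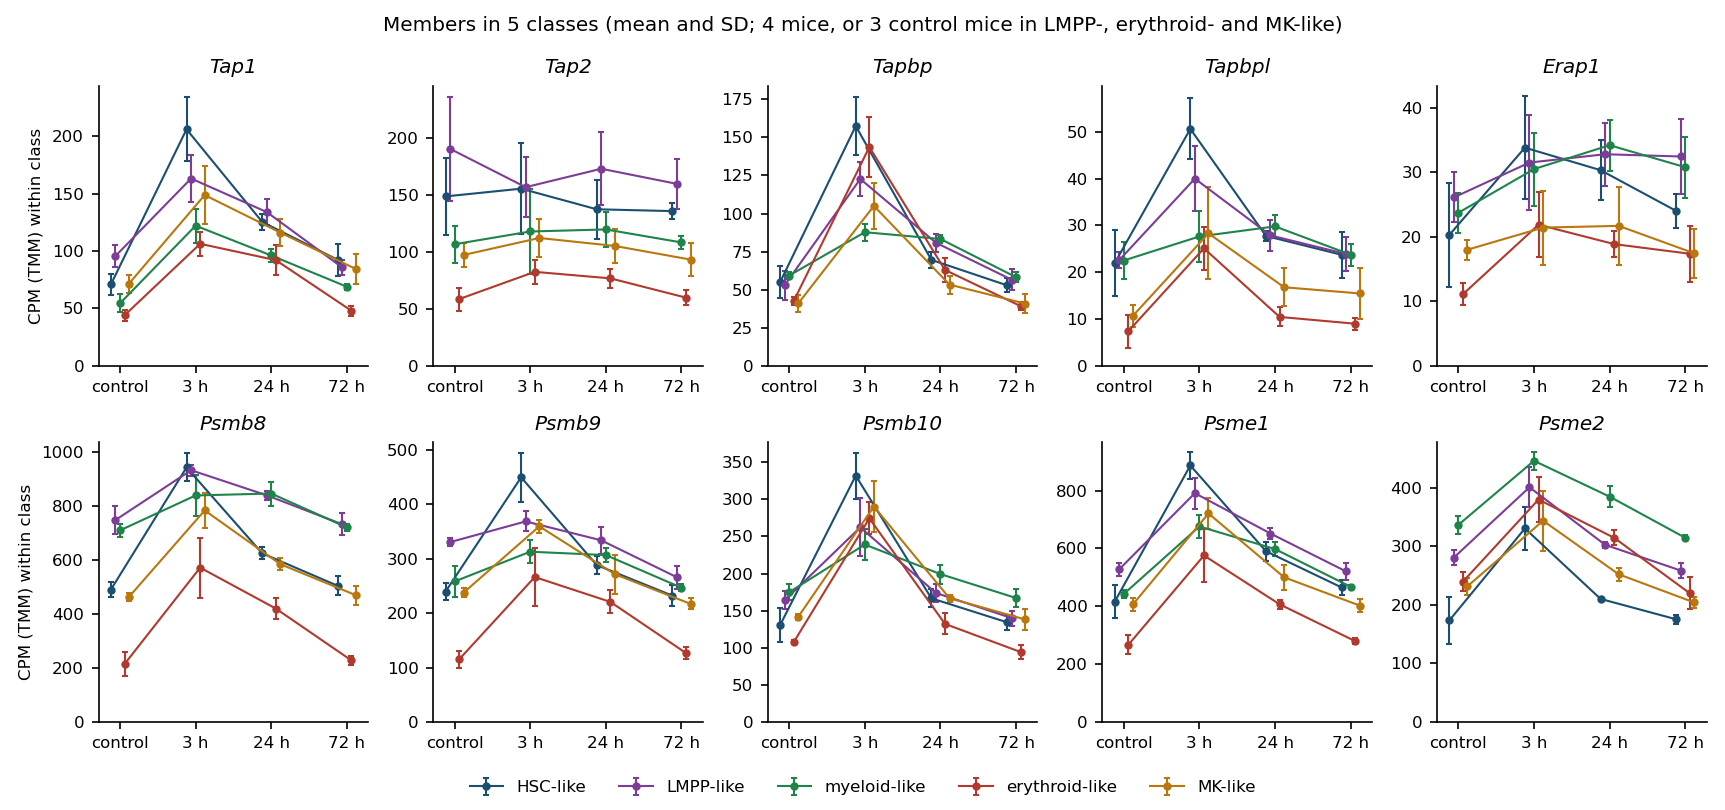
CPM of each member in 5 classes of cells by time after IFNα, as the mean and SD over mice (4 mice, or 3 control mice in the LMPP-like, erythroid-like and MK-like classes). The lines of the classes come closer at 3 h for Psmb8 and part again by 72 h. For Psmb9 the lines lie closest at 24 h, where the highest class mean is 1.51 times the lowest.

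Each class responded at 3 h. Of the members, 8 were called higher in HSC-like cells (all except Tap2 and Erap1), where 12.9% of all genes were, and 7 in LMPP-like cells (10% of all genes). In myeloid-like cells 7 were called (13.8% of all genes), in erythroid-like cells all 10 (9.12%), and in MK-like cells 8 (8.13%). Tap1, Tapbp, Psmb8, Psmb10, Psme1 and Psme2 were called in all 5 classes. Tap2 was called in erythroid-like cells and in no other class, with 47.5, 60.4 and 67.5 CPM in 3 control mice and 82.0, 70.1, 95.7 and 81.6 CPM at 3 h, a log2 change of 0.59 (SE 0.15, adjusted p = 0.0063). In a separate edgeR fit over all classes with mice as blocks (below), the change in erythroid-like minus that in HSC-like cells was 0.27 (SE 0.18, adjusted p = 0.469). This difference did not pass the test. Erap1 was called there too, 1.03 (SE 0.27, adjusted p = 0.00756).

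The erythroid-like class, lowest in control, had the largest change of Psmb8. Its 3 control mice measured 172.5, 259 and 211 CPM and the mice at 3 h 415, 579, 617 and 673 CPM. All mice at 3 h were higher, and the log2 change was 1.52 (SE 0.12, adjusted p = 2.42e-11). In HSC-like cells the control mice measured 504, 502, 506 and 449 CPM and the mice at 3 h 939, 877, 1003 and 949.6 CPM, again without overlap, a change of 0.92 (SE 0.058, adjusted p = 7.89e-16). Myeloid-like cells went from 682 to 734 to 743 to 916 CPM, 0.28 (SE 0.047, adjusted p = 2.14e-05), and the change was 0.33 (SE 0.058, adjusted p = 4.25e-05) in LMPP-like and 0.78 (SE 0.0665, adjusted p = 3.78e-12) in MK-like cells. The share of Psmb8 in Psmb8 plus Psmb5 went from 31.8% ± 5.67 (SD, n = 3) to 60.1% ± 6.35 (n = 4) in erythroid-like cells and from 66.4% ± 1.19 to 78.2% ± 0.666 (n = 4 each) in HSC-like cells. It went from 67.6% ± 3.13 (n = 3) to 74.1% ± 1.54 (n = 4) in LMPP-like and from 58.1% ± 1.80 (n = 3) to 69.9% ± 1.48 (n = 4) in MK-like cells. In myeloid-like cells it went from 61.95% ± 1.94 to 65.4% ± 2.42 (n = 4 each), and there the mice overlapped.

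Tapbp measured 45.2, 40.6 and 41.55 CPM in erythroid-like cells of 3 control mice and 140.2, 126.5, 172 and 136 CPM at 3 h. No mice overlapped, and the log2 change was 1.87 (SE 0.13, adjusted p = 1.22e-12). HSC-like cells had 1.41 (SE 0.11, adjusted p = 2.67e-13), MK-like cells 1.35 (SE 0.16, adjusted p = 9.98e-09) and LMPP-like cells 1.24 (SE 0.135, adjusted p = 2.63e-09). In myeloid-like cells the change was 0.63 (SE 0.075, adjusted p = 4.3e-08). Psmb10 changed by 1.44 in erythroid-like, 1.27 in HSC-like, 1.06 in MK-like, 0.70 in LMPP-like and 0.48 in myeloid-like cells, and Psme1 by 1.21, 1.03, 0.84, 0.59 and 0.645 in the same order, all called. Tap1 had its largest change in HSC-like cells, 1.48 (SE 0.11, adjusted p = 5.99e-14), and its smallest in LMPP-like cells, 0.78 (SE 0.12, adjusted p = 2.49e-06). Psmb9 did not pass in LMPP-like cells, 0.17 (SE 0.078, adjusted p = 0.164).

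**Figure D5:**
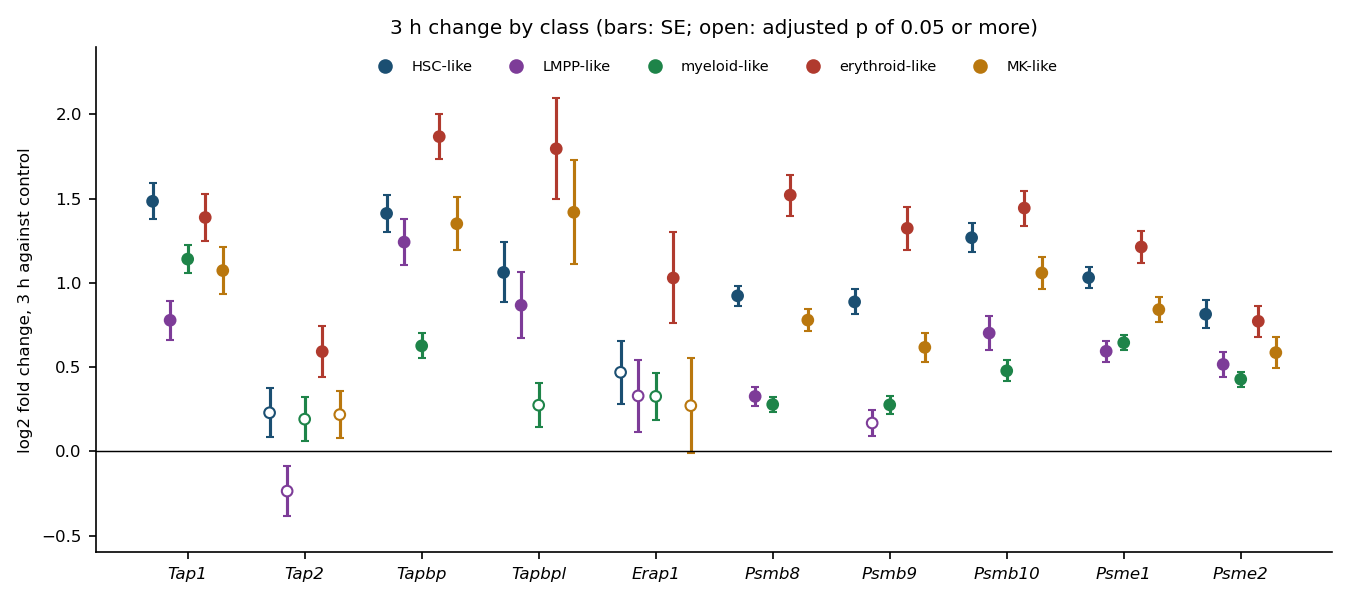
Log2 fold change at 3 h against control of each member in the 5 classes, with SE bars from edgeR's fit within each class. Psmb8 ranges from 0.28 in myeloid-like to 1.52 in erythroid-like cells. Tap2 lies nearest to 0 except in LMPP-like cells, where it was -0.236 and Psmb9 0.168.

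The responses differed between classes by a direct test. With the interaction of class and time in edgeR and mice as blocks, 9 members differed at 3 h, all except Erap1 (adjusted p = 0.547), where 7.54% of all genes did. The smallest adjusted p were those of Psmb8 (4.53e-18), Psmb10 (8.06e-14) and Psmb9 (7.5e-14), and that of Tap2 was 0.0491. The call for Tap2 was lost in 10 of the 16 leave-one-out runs, that for Tap1 without control mouse 1 or 2 or 3 h mouse 3 or 4 (adjusted p up to 0.177), and that for Psme2 without control mouse 3 or 4 or 3 h mouse 3 (up to 0.0867). At 24 h Psmb8, Psmb9 and Psme1 differed, against 5.95% of all genes, and Psme1 lost its call in 8 of the 16 runs, with an adjusted p of up to 0.507. At 72 h no member differed (0.767% of all genes), and 1 had an unadjusted p under 0.05. The edgeR likelihood ratio test also called 0.

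Against HSC-like cells at 3 h, 7 members had smaller changes in myeloid-like cells, where 3.69% of all genes differed in either direction. The differences were -0.835 (SE 0.089, adjusted p = 2.55e-11) for Psmb10, -0.82 (SE 0.14, adjusted p = 1.7e-05) for Tapbp and -0.68 (SE 0.079, adjusted p = 5.68e-10) for Psmb8 on the log2 scale, and Tapbpl, Psmb9, Psme1 and Psme2 were the others. Tapbpl lost its call without control mouse 1 or 2 or 3 h mouse 2 or 4 (adjusted p up to 0.234), and Psme2 without control mouse 2 (0.0529). In LMPP-like cells 5 were smaller (Tap1, Psmb8, Psmb9, Psmb10 and Psme1), against 0.256% of all genes, with -0.71 (SE 0.10, adjusted p = 5.07e-06) for Psmb9. The count was 2 to 5 with a mouse left out. Psmb10 and Psme1 lost their calls without control mouse 2 (adjusted p = 0.101 and 0.0848), and Tap1 in 6 of the 16 runs. In erythroid-like cells the changes of Psmb8, 0.53 (SE 0.10, adjusted p = 0.000195), and Psmb9, 0.37 (SE 0.11, adjusted p = 0.0385), were larger, against 4.89% of all genes, and Psmb9 lost its call in 10 of the 16 runs. No member differed in MK-like cells (0.114% of all genes) by edgeR's quasi-likelihood or likelihood ratio test, with 3 at an unadjusted p under 0.05.

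At 24 h the number of members called higher was 3 in HSC-like cells (4.05% of all genes), 4 in LMPP-like (3.64%), 9 in myeloid-like (9.38%), 9 in erythroid-like (6.39%) and 3 in MK-like cells (2.78%). Tap1, Psmb8 and Psme1 were called in all 5 classes. Psmb8 in erythroid-like cells measured 398, 404, 396 and 479.9 CPM, above the control mice, with a log2 change of 0.98 (SE 0.11, adjusted p = 3.47e-07). In HSC-like cells it was 0.32 (SE 0.056, adjusted p = 0.00017) and in myeloid-like cells 0.26 (SE 0.044, adjusted p = 5.64e-05). The change of Tapbp in myeloid-like cells was 0.51 (SE 0.059, adjusted p = 4.73e-08) at 24 h, beside 0.63 at 3 h, and in HSC-like cells 0.23 (SE 0.11, adjusted p = 0.257), beside 1.41.

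At 72 h Tap1 and Erap1 were called higher in myeloid-like cells, 0.30 (SE 0.0795, adjusted p = 0.0091) and 0.35 (SE 0.12, adjusted p = 0.0393), where 8.33% of all genes were. Without cluster 8 neither was called. By edgeR's quasi-likelihood test 0 members were called higher in HSC-like (3.77% of all genes), LMPP-like (2.84%), erythroid-like (3%) and MK-like cells (2.76%), and by DESeq2 also 0. At an unadjusted p under 0.05, 1, 0, 1 and 0 members were higher in these 4 classes. Psmb9 was called lower in LMPP-like cells, -0.30 (SE 0.077, adjusted p = 0.0163), against 0.842% of all genes, and not when labels were transferred without correction or with the response genes kept.

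Per cell, with each cell thinned to 5000 UMIs to remove the difference in depth, Psmb8 was detected in 86 to 91.9% of the cells of a control mouse and in 96.8 to 98.8% at 3 h. Before thinning these shares were 93.1 to 98.3% and 98.6 to 99.7%. Tapbp was detected in 19.3 to 26.6% of thinned control cells and in 43.4 to 49.5% at 3 h, and Tap1 in 27.7 to 35.1% and 46 to 55.8%. Unthinned shares were 51.7 to 65.3% and 72.7 to 81% for Tapbp and 68 to 74.2% and 80.1 to 84.4% for Tap1. Tap2 was found in 40.4 to 50.9% of thinned control cells and in 43.7 to 55.2% at 3 h, which overlapped, and unthinned in 82.8 to 85.2% and 71.6 to 79.9%. At least 5 of the 10 members were detected in 61.3% of thinned control cells, 87.5% at 3 h, 73.6% at 24 h and 58.6% at 72 h, after 35, 61, 35 and 68 shallower cells were left out. No class of these cells is known to lack the genes, so no share from free RNA alone can be set beside these values.

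Other genes of the pathway were read from lists. Of the 9 MHC class I genes, all were higher at 3 h, with a median log2 fold change of 0.72 (8 with library size scaling, under which H2-D1 did not pass), led by H2-T22, 1.85 (SE 0.058, adjusted p = 1.58e-17), and H2-Q4, 1.56 (SE 0.077, adjusted p = 1.05e-13). Of the 9 regulators of class I genes, 6 were higher and 2 lower, with a median of 1.18. Stat2, a signal carrier of the type I interferon receptor, went from 5.85 ± 0.487 to 44.2 ± 7.41 CPM (SD, n = 4 each), a log2 change of 2.88 (SE 0.12, adjusted p = 5.64e-15). Rfxank, -0.52 (SE 0.16, adjusted p = 0.0139), and Rfxap, -0.22 (SE 0.067, adjusted p = 0.0121), subunits of a factor at MHC promoters, were lower.

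The rest of the proteasome had log2 changes near that of all genes at 3 h, and its calls moved with the scaling. Of 11 other core 20S subunit genes, 2 were higher (Psma3, 0.13 (SE 0.040, adjusted p = 0.0107), and Psma4, 0.12 (SE 0.0355, adjusted p = 0.00908)) and 2 lower (Psma6, -0.18 (SE 0.046, adjusted p = 0.00329), and Psma1, -0.165 (SE 0.043, adjusted p = 0.00405)). At 72 h all 11 were lower, with a median log2 change of -0.22. Of 17 genes of the 19S cap, 3 were higher at 3 h, led by Psmd4 and Psmd1, and 5 lower, led by Psmd3 and Psmd13. Of 8 assembly and other factors, 2 were higher (Psmg4, 0.50 (SE 0.048, adjusted p = 1.38e-08), and Psmg2) and 3 lower, led by Psmg1 and Psmg3. With library size scaling, which shifts all genes, these counts were 0 higher and 8 lower, 1 and 13, and 1 and 5, and Psma3 and Psma4 had log2 changes of -0.017 and -0.028. The medians of the 3 lists were 0.024, -0.040 and -0.092 with TMM and -0.13, -0.19 and -0.24 with library size, against -0.027 and -0.175 over all genes.

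Of 5 partners in the endoplasmic reticulum, edgeR called 3 lower at 3 h (5 with library size scaling) and none had a positive log2 change. Uggt1, a folding sensor that sends glycoproteins back to chaperones, had -0.34 (SE 0.080, adjusted p = 0.00168) and Calr, calreticulin, -0.25 (SE 0.065, adjusted p = 0.00382). Pdia3, which pairs with tapasin, had -0.13 (SE 0.050, adjusted p = 0.0373), and Canx and Sec61a1, with log2 changes of -0.016 and -0.165, did not pass. Pdia3, Canx and Sec61a1 were named after their values were seen. Of 5 cytosolic peptidases, Tpp2 was higher, 0.23 (SE 0.071, adjusted p = 0.013), and Blmh lower, -0.225 (SE 0.056, adjusted p = 0.00276), and with library size scaling Tpp2 did not pass (log2 change 0.082, adjusted p = 0.354).

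The genes most like the members over the 16 mice, among those with a mean of at least 20 CPM, were sought by Pearson r of log2 CPM. Against the mean of the members they were Slfn2 (r = 0.97), Epsti1, Bst2 and Lgals3bp (0.969 each) and Shisa5 (0.968). Tap1 was like Lgals3bp (0.984) and H2-T22 (0.978), and Psme1 most like Lgals3bp (0.992), Ifitm3 and Shisa5 (0.991 each). Psmb8 was most like Psmb9 (0.993), which lies near it in the MHC region, followed by Tapbp and Bst2 (0.978 each). The 16 mice share 4 libraries, so these values describe the time course and carry no p.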

How the data were processed

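The deposited matrices hold raw UMI counts of genes in barcodes, which the authors obtained by aligning reads to mm10 with Cell Ranger 3.1.0. A deposited table holds other values per barcode, of which the hashtag call (a mouse, a multiplet or negative) was used. The gene annotation behind the counts is not given in the sources used here. Kept cells had 1 hashtag, at least 700 genes and at most 5% mitochondrial UMIs, which gave 10046 of 13310 barcodes, the total that the study's methods state for the same filter.

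Counts were summed per mouse, and per mouse and class with at least 10 cells. Tests were edgeR 4.0.16 quasi-likelihood F tests (R 4.3.3, limma 3.58.1) with filterByExpr, TMM and Benjamini-Hochberg adjustment over all genes, called at an adjusted p under 0.05. A class by time interaction with mouse as a block compared responses. Control cells were clustered in Scanpy 1.11.5 (500 variable genes, 10 principal components, 15 neighbors, Leiden resolution 0.8) into 15 clusters, 9 of which made up the 5 classes. Labels were carried over by the 15 nearest control cells after a mutual nearest neighbor correction. A cluster was named, unless its median UMI count was low, when at least 1 listed marker of the class was among its 10 leading genes and at least 3 were detected. This naming rule was settled after the data were seen. Shares were compared by exact permutation, adjusted over 9 values. The 3 h contrast of the whole compartment and the 3 h interaction of erythroid-like against HSC-like cells were also run on simulated counts. The outcome of these runs is not reported here, so they lend no weight to the calls. The other tests were not run on simulated counts. UMI counts and their intervals cover counting error only, and p-values measure the spread between mice, each of which was in 1 library with its group.

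Members, lists and tests were chosen with earlier results of these data known. Named were every member, Psmb5, Psmb6 and Psmb7, of each pathway list up to 2 called genes with the largest rise and 2 with the largest fall at 3 h, and the genes most like the members; some genes under these rules are not reported here. Alternatives were the edgeR likelihood ratio test, DESeq2 1.42.0, library size scaling, no filter on low counts, hashtag number as a block, another cell filter (10%, 500 genes), thinning to 5000 UMIs, fixed class shares (limma), 2 other label sets, HSC-like cells alone for the shares, and each mouse left out. The myeloid-like class without cluster 8 was added after seeing the data. Promoter sequences are those of RefSeq.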

Additional observations from a re-analysis of the deposited data

Results flagged for a closer look

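Some single mice stood apart from the other 3 of their group, by a gap to the nearest mouse divided by the range of the group over Dixon's 95% critical value for 4 samples. Of 52 groups tested, 6 were above it, and chance alone marks about 1 in 20. At 3 h, mouse 3 was highest for Tap1 (173 CPM against 148 to 149.6, ratio 0.922) and for Tap2 (171 CPM, ratio 0.899). It was also highest for the share of Psmb9 in Psmb9 plus Psmb6 (62.2%, ratio 0.841). At 24 h, mouse 4 was highest for Psmb8 (727 CPM, ratio 0.896). At 72 h, mouse 1 was lowest for Tap1 (74.7 CPM, ratio 0.928) and mouse 3 highest for the Psmb9 share (50.8%, ratio 0.905).

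Responses that differed between the 5 classes by edgeR's interaction test were the other results marked. At 3 h the adjusted p was 0.018 for Tap1, 0.0491 for Tap2, 2.23e-08 for Tapbp, 0.000851 for Tapbpl, 4.53e-18 for Psmb8, 7.5e-14 for Psmb9, 8.06e-14 for Psmb10, 1.74e-07 for Psme1 and 0.00494 for Psme2. At 24 h it was 3.25e-10 for Psmb8, 4.39e-10 for Psmb9 and 0.0419 for Psme1. Psmb8 had log2 changes at 3 h from 0.28 in myeloid-like to 1.52 in erythroid-like cells, which had the lowest control level. The myeloid-like class held less of cluster 8 at 3 h (6.4%) than in control (24.7%), and without cluster 8 the number of members called higher in myeloid-like cells at 3 h was 7, as with it. The differences between classes were not tested without cluster 8. In the erythroid-like class, cluster 12 made up 41% of the cells in control and 26.8% at 3 h, and no run left that cluster out. Its control cells had a median of 52005 UMIs, beside 22041 in cluster 11, so it weighs more in the sums than these shares of cells.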

How the results depend on the processing

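No called value changed direction under any alternative run. In the whole compartment, 9 members were called higher at 3 h under every alternative except thinned cells, where Tap2 made 10. At 72 h the count called higher, 2, was 1 with DESeq2, library size scaling, no filter, the replicate block and thinned cells, and 0 with fixed class shares, where Tap1 had limma's adjusted p = 0.062. The count called lower, 1, was 2 with library size. In HSC-like cells the 24 h count of 3 was 5 without a filter. The 72 h count called lower in LMPP-like cells, 1, was 0 with uncorrected transfer and with response genes kept. In myeloid-like cells the 72 h count called higher, 2, was 1 with DESeq2, library size, the replicate block or response genes kept and 0 without cluster 8, and 1 was called lower with library size. In HSC-like cells alone the share differences were 11.73, 4.88 and 1.91 percentage points for Psmb8 at 3, 24 and 72 h, 10.23 and 1.17 for Psmb9 at 3 and 24 h and 19 and 4.45 for Psmb10, with exact permutation adjusted p of 0.0514 to 0.45. The Psmb9 share at 72 h, which did not pass in the whole compartment (2.77), was -3.16 there (exact permutation adjusted p = 0.0514). For HSC-like cells alone, comparisons at the smallest p of this permutation test, 0.0286, had an adjusted p of 0.0514. The size of a difference could therefore not make it pass. With a mouse left out, counts were 1 to 2 higher and 1 to 2 lower at 72 h, 0 to 1 lower in LMPP-like and 1 to 2 higher in myeloid-like cells at 72 h, and 2 to 5 against LMPP-like and 1 to 2 against erythroid-like cells. The share differences were 2.54 to 3.21 (Psmb8, 72 h), 1.34 to 3.55 (Psmb9, 72 h) and 2.88 to 4.75 (Psmb10, 24 h). The causes were not tested. Whether hashtag numbers pair mice was not tested. After each time point's mean was taken off, the median r between mice of different time points was 0.063 (-0.289 to 0.334) over 24 pairs with the same number. Over 72 pairs with different numbers it was -0.021 (-0.39 to 0.376). Time point and library cannot be told apart, and in control mouse 4 Tapbpl rests on 19 UMIs.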

Other observations

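The class I genes themselves, chosen for description after their values were seen, differed among themselves between 3 and 24 h. H2-K1 and H2-D1, classical class I heavy chains, measured 871 ± 46.0 and 1118 ± 34.9 CPM in control (SD, n = 4), 1069 ± 24.0 and 1286 ± 11.1 CPM at 3 h, and 1404 ± 66.9 and 1607 ± 55.8 CPM at 24 h. From 3 to 24 h their log2 changes were 0.39 (SE 0.036, adjusted p = 1.31e-08) and 0.32 (SE 0.027, adjusted p = 2.64e-09) by edgeR's quasi-likelihood test, where 8 of the 10 members fell. B2m, the light chain, changed by 0.13 (SE 0.032, adjusted p = 0.00406), and H2-Q7 by 0.585 (SE 0.057, adjusted p = 3.21e-08). Of the 9 class I genes, 5 rose and 3 fell over this step, where 1478 of all 12042 genes tested were called higher and 1959 lower. H2-T22 and H2-T23, nonclassical class I genes, fell by 0.88 and 0.74 on the log2 scale (edgeR adjusted p = 4.2e-12 and 2.93e-11). At 72 h all 9 were still called higher than control, where 18.9% of all genes were. Of the 10 members 2 were called higher, near the share over all genes. Erap1, 1 of these 2, lost its call in 10 of the 16 leave-one-out runs, and neither was called with fixed class shares. Counts of these similar genes can share reads.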
